A study of Mus musculus with 6 samples.

Results

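The cytochrome P450 omega-hydroxylases of the Cyp4a and Cyp4f subfamilies, with their relative Cyp4v3, were followed in 6 mouse livers profiled by RNA sequencing. The 10 genes were taken by symbol: Cyp4a10, Cyp4a12a, Cyp4a12b, Cyp4a14, Cyp4a31, Cyp4a32, Cyp4f13, Cyp4f14, Cyp4f15 and Cyp4v3, out of 16426 genes listed in at least 1 library. They were picked with earlier results on these same livers known, so their fold changes and adjusted p-values are given as a description and are not independent evidence of a difference. In 3 livers an AAV8 vector, a virus that reaches hepatocytes from the blood, carried a short hairpin RNA against S1pr2, the sphingosine-1-phosphate receptor 2 (shRNA-S1PR2). In the other 3 livers the vector carried a scrambled hairpin (shRNA-Scramble). All 6 came from mice of a mixed B6:sv129 background aged 7 to 12 weeks. The series text adds that male mice took about 0.84 mg/kg dexamethasone, a synthetic glucocorticoid, in drinking water for 7 days, which applies to both groups if it holds for every animal. The same text names more than one laboratory as the source of the wild-type animals and ties no liver to either of them. Livers without dexamethasone were not analysed here. The promoter driving the hairpins, and whether any animals were pooled, are unstated in the labels and series text. The labels do not state that each sample of a group is a different mouse, and a p-value here measures the spread among these samples, which may be technical. The shRNA-S1PR2 livers are also called knockdown livers, and values given per liver follow the replicate numbers 1, 2 and 3.

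Omega-hydroxylases insert oxygen at the far end of a fatty acid chain, using electrons passed on by cytochrome P450 reductase in the endoplasmic reticulum. The product is oxidised to a dicarboxylic acid and shortened in peroxisomes, a side route of fatty acid breakdown that grows in fasting. Cyp4a10 and Cyp4a14 are classical targets of the fatty acid receptor PPARalpha in liver, whereas Cyp4a12a is the male-predominant enzyme that makes 20-HETE from arachidonic acid. Mouse Cyp4f enzymes hydroxylate leukotrienes and other eicosanoids, and Cyp4v3 is the mouse counterpart of human CYP4V2, a fatty acid hydroxylase linked to Bietti crystalline dystrophy of the retina.

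The files give the members by Entrez gene ID: Cyp4a10 (13117), Cyp4a12a (277753), Cyp4a12b (13118), Cyp4a14 (13119), Cyp4a31 (666168), Cyp4a32 (100040843), Cyp4f13 (170716), Cyp4f14 (64385), Cyp4f15 (106648) and Cyp4v3 (102294). The Cyp4a genes lie together on chromosome 4, the Cyp4f genes on 17 and Cyp4v3 on 8. Several members are near-copies of each other, and this bears directly on their counts. The GENCODE M21 coding sequences of Cyp4a12a and Cyp4a12b were 98.49% identical, with 23 of 1524 bases differing. Those of Cyp4a10 and Cyp4a32 were 97.18% identical, those of Cyp4a10 and Cyp4a31 96.59%, and those of Cyp4a31 and Cyp4a32 96.01%. Cyp4a14 stood farther off, at 77.92% identity with Cyp4a10. The following 90-base stretches of coding sequence were picked in each set for the most differences, within an exon and without gaps. They show where the copies differ most, and not where reads fail to tell them apart. They read 5′ to 3′, and capitals mark the positions that differ within each set. The Cyp4a12 stretches lie in exon 6 (coding bases 661 to 750) at chr4:115326659-115326748 for Cyp4a12a and chr4:115432912-115433001 for Cyp4a12b, both on the plus strand of GRCm38, and 7 positions differ.
Cyp4a12a: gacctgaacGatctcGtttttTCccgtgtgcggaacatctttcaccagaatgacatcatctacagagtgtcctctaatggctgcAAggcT
Cyp4a12b: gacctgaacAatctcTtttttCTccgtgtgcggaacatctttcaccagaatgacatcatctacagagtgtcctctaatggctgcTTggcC

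The stretches from Cyp4a10, Cyp4a31 and Cyp4a32 lie in exon 2 (coding bases 190 to 279) on the plus strand of GRCm38, at chr4:115519630-115519719, chr4:115565010-115565099 and chr4:115602260-115602349. In these, 13 positions were not the same in all 3 genes.
Cyp4a10: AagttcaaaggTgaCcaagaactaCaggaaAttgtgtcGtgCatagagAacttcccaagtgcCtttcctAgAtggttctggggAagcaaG
Cyp4a31: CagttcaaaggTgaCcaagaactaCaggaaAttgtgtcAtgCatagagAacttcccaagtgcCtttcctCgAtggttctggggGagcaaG
Cyp4a32: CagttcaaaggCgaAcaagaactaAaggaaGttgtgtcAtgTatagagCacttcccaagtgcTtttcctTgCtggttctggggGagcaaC

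Picked in this way, these stretches hold more differences than the coding sequences do on average. Of all 100-base windows of the Cyp4a12a transcript, 35.8% occurred unchanged in Cyp4a12b. The share in another gene was 12.7% for Cyp4a10, 20.1% for Cyp4a32 and 8.22% for Cyp4a31. It was 5.77% for Cyp4v3, which shares them with the predicted gene Gm45753, and 0 for Cyp4a14, Cyp4f13, Cyp4f14 and Cyp4f15. Windows of 50 bases were shared more often: 48.9% of those of Cyp4a12a, 30.5% of Cyp4a10, 46.8% of Cyp4a32 and 21.8% of Cyp4a31. At that length the Cyp4f genes were not free of sharing either, at 2.70% for Cyp4f13, 2.72% for Cyp4f14 and 2.45% for Cyp4f15. The Cyp4a32 transcript compared here has 1530 bases, 1527 of them coding, whereas its deposited length is 1914 bases. Its shares therefore cover little beyond coding sequence and are not like for like with those of the other genes. The deposited expected counts divide a read that fits several genes between them in fractions. Of the members, 8 carried fractional counts in all 6 libraries, while Cyp4a14 did so in 2 libraries and Cyp4v3 in none. Among all genes listed in a library, 24.48% to 25.21% had a fractional count. A fractional count does not show how much of a gene's count was divided.

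The 6 libraries held 16558775 to 17410160 expected counts each. S1pr2 itself was measured at 4.41, 5.23 and 6.66 CPM (counts scaled to library size with edgeR's TMM factors) under the scrambled hairpin and at 3.04, 2.20 and 2.22 CPM in the knockdown livers. Its log2 fold change was -1.12 (SE 0.24, adjusted p = 0.0301, edgeR quasi-likelihood test), and the groups did not overlap. With 1 liver left out the fold change ran from -1.29 to -0.95, and the call was lost (adjusted p 0.0785 to 0.117) without scramble liver 2 or 3 or without shRNA-S1PR2 liver 2 or 3. Across the 12230 genes tested, 937 passed an adjusted p of 0.05 (7.66%), 369 higher (3.02%) and 568 lower (4.64%). With limma on log2(FPKM + 0.1), the deposited per-length values, 608 were higher and 265 lower, and the median of all genes moved from 0.01 to 0.16. The groups did not overlap in CPM for 31.9% of genes. The 7 hepatocyte markers summed to between 121800 and 147600 CPM in scramble livers and between 76150 and 110100 CPM in shRNA-S1PR2 livers, without overlap. This sum is unweighted, so the most abundant transcripts count most in it. The marker Hnf4a, for example, averaged only 562 CPM in scramble and 438 CPM in shRNA-S1PR2 livers. Taken singly, 0 of these 7 passed the test in either direction. The 6 sinusoidal endothelial markers summed to between 121 and 136 CPM and between 153 and 171 CPM, also without overlap, and 3 of the 6 passed the test as higher. Summed markers of Kupffer cells, neutrophils, stellate cells and cholangiocytes overlapped between groups. The neutrophil marker Ly6g was not listed, no listed marker stood at 0 in all 6 libraries, and the part of these shifts in the results that follow was not tested.

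Of the 10 omega-hydroxylase genes, 1 passed the test, Cyp4a12b, and it was higher in the shRNA-S1PR2 livers. That is 1 of 10 against a background of 7.66%, and nothing is read from it because the genes were chosen on this contrast. By edgeR 0 fell, against 4.64% of all genes, while 2 of those with lower values had an unadjusted p under 0.05, limma-voom called 0 lower and DESeq2's Wald test called 1. The groups did not overlap in CPM for 4 members (Cyp4a10, Cyp4a12b, Cyp4a14 and Cyp4f14), beside the 31.9% of all genes. The median log2 fold change was -0.07 over the members and 0.01 over all genes, with 5 members above 0 and 5 below. In bulk tissue, a lower value from fewer cells of a type and one from less RNA per cell cannot be told apart.

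**Figure D1:**
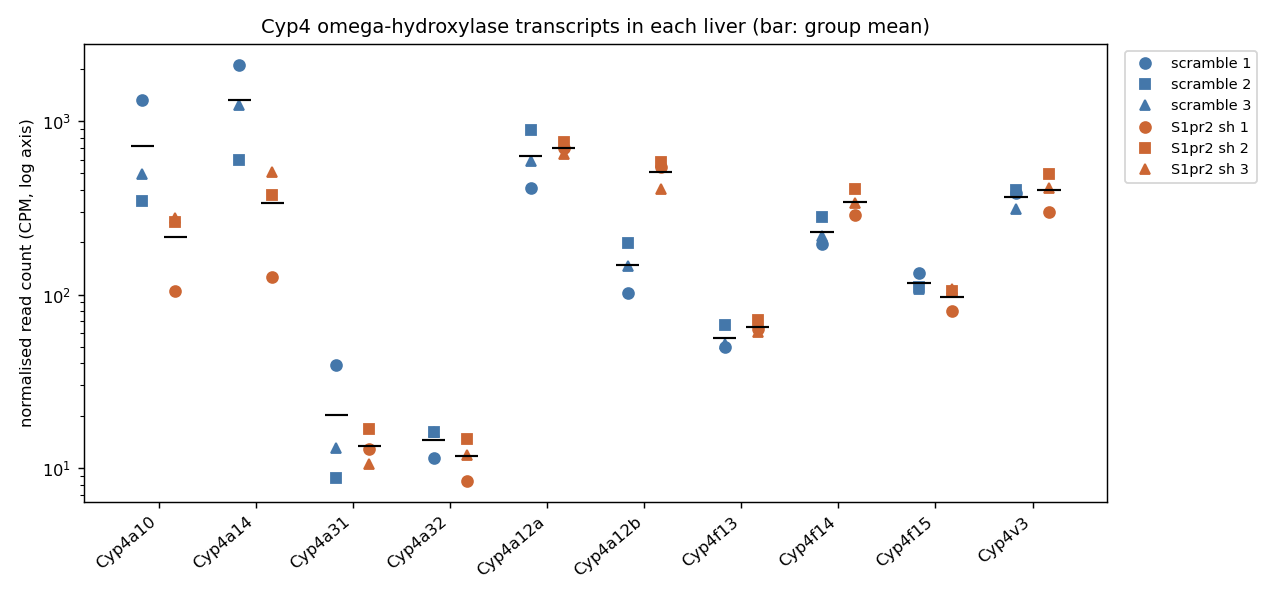
Normalised read count (CPM, log axis) of each of the 10 genes in the 3 scramble livers (blue) and the 3 shRNA-S1PR2 livers (orange), with symbols for the replicate and a black bar for the group mean. Cyp4a10, Cyp4a14, Cyp4a12b and Cyp4f14 are the 4 genes whose groups do not overlap.

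Among the Cyp4a12 genes, Cyp4a12b rose while its near-copy Cyp4a12a did not pass the test. Cyp4a12b is the less studied neighbour of Cyp4a12a in the Cyp4a cluster on chromosome 4. Its expected counts were 1662, 3182 and 2419 under the scrambled hairpin, and 10828, 9529.6 and 6949.6 in the knockdown livers. After scaling these were 102, 198 and 146 CPM against 548, 584 and 407 CPM. Every shRNA-S1PR2 liver thus lay above every scramble liver. The mean went from 149 ± 48.1 to 513 ± 93.4 CPM (SD, n = 3), a log2 fold change of 1.79 (SE 0.26, adjusted p = 0.0103, edgeR). With any 1 liver left out it stayed between 1.57 and 2.03, with adjusted p from 0.0159 to 0.0482.

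Cyp4a12a, the 20-HETE synthase, had expected counts of 6688, 14277 and 9816 under the scrambled hairpin. In the knockdown livers they were 13893, 12343 and 11047. Scaled, these were 409.8, 888 and 594 CPM against 703, 756 and 647 CPM. Scramble livers 1 and 2 enclosed the whole shRNA-S1PR2 range. The log2 fold change of 0.15 (SE 0.27, adjusted p = 0.777, edgeR) turned to -0.08 without scramble liver 1.

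The split between the copies differed between the groups without overlap, whereas their total overlapped. Cyp4a12b took 19.9%, 18.2% and 19.8% of the pair's expected counts under the scrambled hairpin, and 43.8%, 43.6% and 38.6% in the knockdown livers. The mean share was 19.3% ± 0.933 in scramble and 42.0% ± 2.93 in shRNA-S1PR2 livers (SD, n = 3), a difference of 22.7 percentage points. Deposited FPKM gave 19.5% and 42.3%. The total of both genes was 511.6, 1086 and 740.5 CPM under the scrambled hairpin and 1251, 1339.5 and 1054 CPM in the knockdown livers. These ranges overlapped, since scramble liver 2 exceeded shRNA-S1PR2 liver 3. The total gave a log2 fold change of 0.64 (SE 0.27, adjusted p = 0.193, edgeR), and did not pass. Reads from the windows that both genes share were divided by the authors' estimate, and the part of that division in the split was not tested. The mice are of mixed B6:sv129 background, the strain origin of these genes in each liver is not known, and whether alleles of the strains differ in how their reads are divided was not tested.

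**Figure D2:**
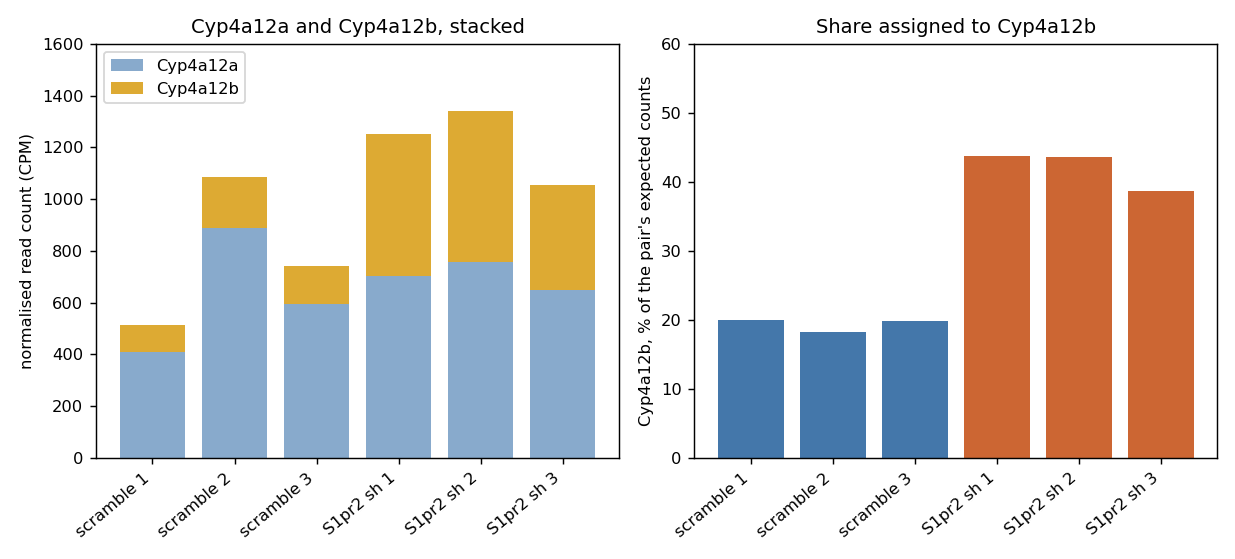
Left, normalised read count (CPM) of Cyp4a12a and Cyp4a12b stacked for each of the 6 livers; right, the percentage of the pair's expected counts assigned to Cyp4a12b in each liver. The share lies between 18.2% and 19.9% in the scramble livers and between 38.6% and 43.8% in the shRNA-S1PR2 livers, while the stacked totals overlap.

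The PPARalpha-responsive members Cyp4a10 and Cyp4a14 varied widely between livers of 1 group. Both had lower values in every shRNA-S1PR2 liver, and neither passed the test. Cyp4a14 had expected counts of 34624, 9629 and 20546 under the scrambled hairpin and 2483, 6103 and 8684 in the knockdown livers. Scaled, these were 2121, 599 and 1243 CPM against 126, 374 and 508 CPM. The lowest scramble liver was only slightly above the highest shRNA-S1PR2 liver. The means were 1321 ± 764 and 336 ± 194 CPM (SD, n = 3), and the log2 fold change was -1.98 (SE 0.65, adjusted p = 0.131, edgeR). DESeq2's Wald test on the same counts gave -1.98 with an adjusted p of 0.0343, a call that edgeR's test did not make. Over the 17 alternatives to edgeR's main fit the adjusted p of Cyp4a14 ran from 0.0343 to 0.312.

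Cyp4a10 followed the same order of livers within the scramble group, with expected counts of 21575, 5598 and 8258. The shRNA-S1PR2 livers had 2069, 4309 and 4698. Its scaled values were 1322, 348 and 499.8 CPM under the scrambled hairpin against 105, 264 and 275 CPM. Scramble liver 1 was the highest of all 6 livers and shRNA-S1PR2 liver 1 the lowest, for both Cyp4a10 and Cyp4a14. The log2 fold change of Cyp4a10 was -1.75 (SE 0.62, adjusted p = 0.149, edgeR), and -0.98 without scramble liver 1. Cyp4a14 gave -1.45 without that liver.

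Cyp4a31 and Cyp4a32, the near-copies of Cyp4a10, were expressed at a small part of its level. Cyp4a31 stood at 39.0, 8.71 and 13.0 CPM under the scrambled hairpin and at 12.9, 16.7 and 10.5 CPM in the knockdown livers. Scramble liver 1 again stood apart, and without it the log2 fold change of -0.60 (SE 0.59, adjusted p = 0.606, edgeR) became 0.30. Cyp4a32 was measured at 11.5, 16.05 and 16.04 CPM in scramble livers and at 8.40, 14.6 and 11.9 CPM in shRNA-S1PR2 livers, with overlap, and its log2 fold change was -0.32 (SE 0.22, adjusted p = 0.422, edgeR). Summed, Cyp4a10, Cyp4a31 and Cyp4a32 gave -1.66 (SE 0.59, adjusted p = 0.1498, edgeR), close to Cyp4a10 alone.

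On average the lesser copies took a larger part of the trio in the shRNA-S1PR2 livers, where Cyp4a10 had lower values. Cyp4a31 had 2.84%, 2.34% and 2.45% of the trio's expected counts under the scrambled hairpin and 10.2%, 5.66% and 3.53% in the knockdown livers, without overlap. Cyp4a32 had 0.834%, 4.304% and 3.03% against 6.68%, 4.93% and 3.99%, and these overlapped. Cyp4a10 made up the rest, from 83.1% in shRNA-S1PR2 liver 1 to 96.3% in scramble liver 1. Within the scramble group the Cyp4a31 share was highest in liver 1, where Cyp4a10 was also highest. These shares are parts of a whole, so a low Cyp4a10 raises the others by arithmetic. The 3 genes share transcript windows, and the part of read division in these shares was not tested.

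**Figure D3:**
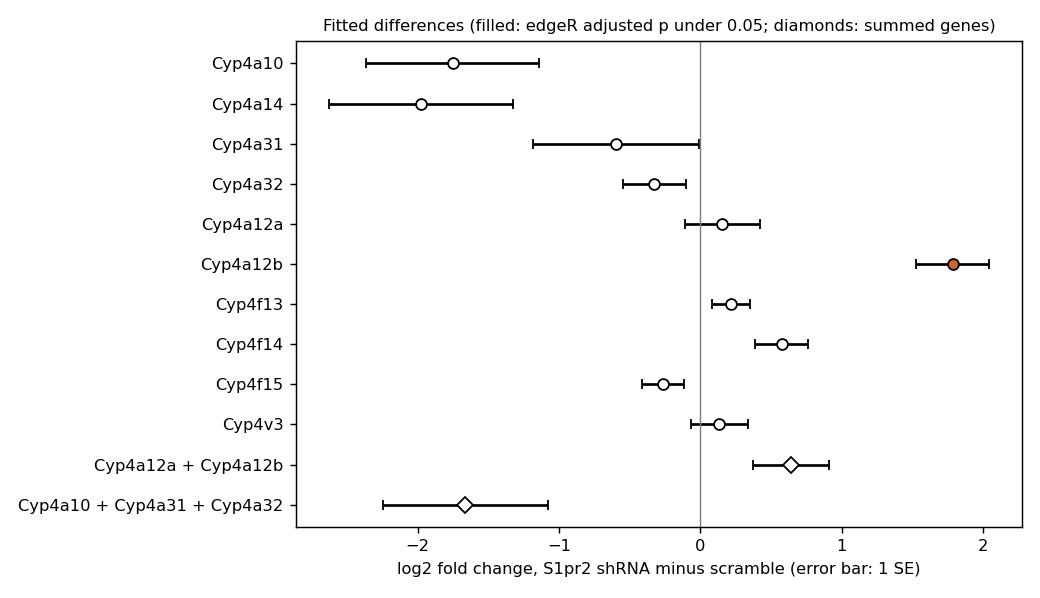
Fitted log2 fold change (shRNA-S1PR2 minus scramble, edgeR) for the 10 genes and, as diamonds, for the summed near-copies; error bars are 1 SE, and the filled point passed an adjusted p of 0.05. Cyp4a12b at 1.79 is the filled point, and Cyp4a14 at -1.98 has the wider error bar of 0.65.

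The Cyp4f genes lie on chromosome 17 and shared no 100-base window, and 2.45% to 2.72% of 50-base windows, with other genes. Cyp4f14, which hydroxylates leukotriene B4, had expected counts of 3177, 4479 and 3608 under the scrambled hairpin and 5672, 6638 and 5762 in the knockdown livers. Its scaled values were 195, 279 and 218 CPM against 287, 407 and 337 CPM. All 3 shRNA-S1PR2 livers lay above the scramble livers, by a narrow margin at the nearest pair. The log2 fold change was 0.58 (SE 0.19, adjusted p = 0.106, edgeR), and it did not pass. DESeq2's Wald test, which called 1466 genes against edgeR's 937, gave 0.58 with an adjusted p of 0.0294. On log2(FPKM + 0.1), where the median of all genes was 0.16, limma gave 0.75 with an adjusted p of 0.0279. Over all 17 alternatives the adjusted p of Cyp4f14 ran from 0.0279 to 0.303.

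Cyp4f13 and Cyp4f15 showed smaller differences in opposite directions. Cyp4f13 was measured at 49.6, 67.0 and 52.0 CPM under the scrambled hairpin and at 63.5, 71.2 and 61.1 CPM in the knockdown livers, with overlap. Its log2 fold change was 0.22 (SE 0.14, adjusted p = 0.379, edgeR). Cyp4f15 was measured at 134, 110.1 and 107 CPM against 80.3, 104 and 107 CPM, with overlap, and a log2 fold change of -0.27 (SE 0.15, adjusted p = 0.328, edgeR). Within a group, the highest liver exceeded the lowest by 1.17 to 1.43 times for these 3 Cyp4f genes, against 2.63 to 4.05 times for Cyp4a10 and Cyp4a14.

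The deposited tables also list a length for each gene, which RSEM averages over its transcripts weighted by their abundance. For Cyp4f14, with 5 RefSeq transcripts, this length was 2201.5, 2200.6 and 2193.7 bases under the scrambled hairpin and 2178, 2158 and 2164.7 bases in the knockdown livers. The groups did not overlap, and the mean fell by 31.7 bases, from 2199 ± 4.31 to 2167 ± 10.2 bases (SD, n = 3). Among 3217 tested genes with several transcripts and a length that varied, 360 had groups that did not overlap (11.2%). Among genes with 1 transcript, 0 of 9584 had a length that differed between libraries. In GENCODE M21 the matched Cyp4f14 transcripts measure 2034, 2207 and 2221 bases. The other member with several transcripts, Cyp4a31, overlapped between groups in this length.

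Cyp4f14 also has several annotated start sites in RefSeq. The 120 bases upstream of its farthest upstream start and of the Cyp4f13 and Cyp4f15 starts are shown for comparison of these neighbours (RefSeq, GRCm38.p6, 5′ to 3′ on the gene's own strand). Capitals mark CCAAT or its reverse complement ATTGG, a motif picked after the sequences were read. The windows are chr17:32917357-32917476 on the minus strand for Cyp4f14, chr17:32947362-32947481 on the minus strand for Cyp4f13, and chr17:32685539-32685658 on the plus strand for Cyp4f15.
Cyp4f14: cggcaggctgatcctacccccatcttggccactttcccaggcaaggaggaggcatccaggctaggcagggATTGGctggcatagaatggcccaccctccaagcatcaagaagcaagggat
Cyp4f13: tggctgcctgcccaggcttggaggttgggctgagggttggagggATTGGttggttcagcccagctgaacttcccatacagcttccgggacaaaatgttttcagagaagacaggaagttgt
Cyp4f15: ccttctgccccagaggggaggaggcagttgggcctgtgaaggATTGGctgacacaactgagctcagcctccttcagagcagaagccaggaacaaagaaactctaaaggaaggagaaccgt

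Motifs were counted over the whole promoter window of each start, of which the stretches shown above are only a part. On either strand, CCAAT occurred in 37.4% of 32851 such windows and in 7 of the 8 windows that matched members. Those 8 windows belong to Cyp4a32, Cyp4f13, Cyp4f14, Cyp4f15 and Cyp4v3, and 4 of them are starts of Cyp4f14, so they are not separate cases. No window was available for Cyp4a10, Cyp4a12a, Cyp4a12b, Cyp4a14 or Cyp4a31, so the motif counts do not cover these genes. AGGTCA, the core motif of many nuclear receptors, occurred in 16.3% of all windows and in 0 of the 8. TATAAA occurred in 13.6% and in 1 of the 8, that of Cyp4a32. A match is a description of letters in a short window and shows no binding.

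Cyp4v3 lies on chromosome 8, and its highest liver was 1.29 times its lowest in the scramble group and 1.65 times in the shRNA-S1PR2 group. Its expected counts were 6338, 6466 and 5154 under the scrambled hairpin and 5949, 8107 and 7067 in the knockdown livers, all whole numbers. Scaled, these were 388, 402 and 312 CPM against 301, 496 and 414 CPM, with overlap. The log2 fold change was 0.14 (SE 0.20, adjusted p = 0.744, edgeR), and it turned to -0.04 without shRNA-S1PR2 liver 2.

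Levels between genes can be set side by side only per length, in FPKM. In scramble livers the order of mean FPKM was Cyp4a14 (502.5 ± 299), Cyp4a10 (329.6 ± 245), Cyp4a12a (244 ± 87.4), Cyp4v3 (118 ± 14.7), Cyp4f14 (98.8 ± 16), Cyp4a12b (58.3 ± 17.5), Cyp4f15 (51.4 ± 7.40), Cyp4f13 (30.8 ± 4.33), Cyp4a31 (7.83 ± 6.50) and Cyp4a32 (7.17 ± 1.21; SD, n = 3 throughout). Neighbours whose livers overlapped were Cyp4a14 with Cyp4a10, Cyp4a10 with Cyp4a12a, Cyp4v3 with Cyp4f14, Cyp4a12b with Cyp4f15, and Cyp4a31 with Cyp4a32. In shRNA-S1PR2 livers the Cyp4a12 genes led, with Cyp4a12a at 303.5 ± 30.2 FPKM and Cyp4a12b at 225 ± 46.1 FPKM. Cyp4f14 (165 ± 17.6), Cyp4v3 (142 ± 24.1), Cyp4a14 (137 ± 75.2) and Cyp4a10 (105 ± 41.6) followed, and each of these overlapped its neighbour, as did Cyp4a12b and Cyp4f14. The lowest were Cyp4f15 (47.0 ± 4.05), Cyp4f13 (39.7 ± 3.15), Cyp4a32 (6.30 ± 1.22) and Cyp4a31 (5.66 ± 1.18), the last pair overlapping.

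The make-up of the family's FPKM shows the same values as shares of a whole. Cyp4a10 and Cyp4a14 together held 73.1%, 33.2% and 54.8% of the 10 genes' summed FPKM under the scrambled hairpin, and 10.7%, 21.3% and 28.7% in the knockdown livers. Cyp4a12a and Cyp4a12b held 10.5%, 36.8% and 22.8% against 55.4%, 43.0% and 37.5%. The nearest livers of the groups were less than 1 percentage point apart for the Cyp4a12 share. Cyp4f13, Cyp4f14 and Cyp4f15 held 8.87%, 17.8% and 13.4% against 22.0%, 21.6% and 20.7%. The sum itself overlapped between groups, at 1949, 1121 and 1276 FPKM in scramble livers and 1074, 1267 and 1187 FPKM in shRNA-S1PR2 livers. These shares are parts of 1 total, so a low Cyp4a10 and Cyp4a14 raises the others by arithmetic.

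**Figure D4:**
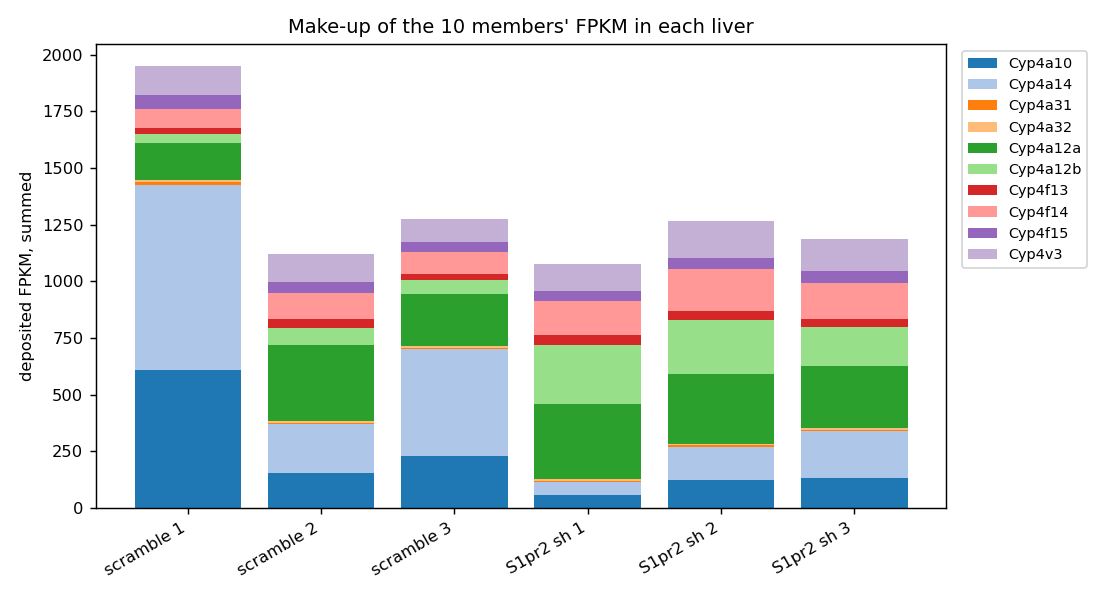
Deposited FPKM of the 10 genes stacked for each liver, 3 scramble livers on the left and 3 shRNA-S1PR2 livers on the right. Cyp4a10 and Cyp4a14 (the blue segments) make up 33.2% to 73.1% of the stack in scramble livers and 10.7% to 28.7% in shRNA-S1PR2 livers.

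Genes whose CPM followed the members most closely over the 6 livers were ranked by Pearson correlation among 8811 genes averaging 5 CPM or more. The 6 points fall into 2 groups of 3 and share their libraries, so the coefficients describe these livers only. Nearest to the Cyp4a12a and Cyp4a12b total were Sec61a1 (0.997), a subunit of the endoplasmic reticulum translocon, Cadm4 (0.996), Mup20 (0.988), a major urinary protein, Zfp750 (0.987) and Hsd17b2 (0.986), a steroid dehydrogenase. Mup20 ran from 9914 CPM in scramble liver 1 to 35330 CPM in shRNA-S1PR2 liver 2, the livers where the Cyp4a12 total was also lowest and highest. Nearest to Cyp4a14 were Cul3 (0.992), Ndufs6 (0.991), Dclre1a (0.990) and Asl (0.989), the urea cycle's argininosuccinate lyase. Nearest to the Cyp4a10, Cyp4a31 and Cyp4a32 total were Ppp1cc (0.996), Mat1a (0.995), the liver's methionine adenosyltransferase, Mrpl54 (0.994), Mrap (0.994) and Rab6a (0.993). Mat1a ran from 7426 CPM in scramble liver 1 to 1516 CPM in shRNA-S1PR2 liver 1, the livers at the ends of the Cyp4a10 range. None of the genes named here as nearest passed edgeR's test between groups.

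Genes around the omega-hydroxylases were counted in 9 lists that hold none of the 10 genes. The background for each list is the share of all genes that edgeR called, 3.02% higher and 4.64% lower. Of 10 other Cyp4 genes, 6 were listed and 4 tested, and 0 passed by edgeR, DESeq2's Wald test or limma-voom, with 1 at an unadjusted p under 0.05. They were Cyp4b1 (log2 fold change 0.38), Cyp4f16 (0.38), Cyp4f17 (-0.36) and Cyp4f39 (-0.59). Cyp4f18, the leukotriene B4 hydroxylase of neutrophils, was below the filter, with expected counts of 2, 9.06 and 14 under the scrambled hairpin and 32.2, 4.05 and 4 in the knockdown livers.

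Of 11 genes for PPARalpha and its partners, 0 passed edgeR's test, with 1 at an unadjusted p under 0.05 and 1 called lower by DESeq2's Wald test and by limma-voom. They had a median log2 fold change of -0.13 beside 0.01 for all genes, and of -0.06 without scramble liver 1 or without shRNA-S1PR2 liver 1. Ppara, the receptor itself, had a log2 fold change of 0.13 (SE 0.26, adjusted p = 0.822, edgeR). Lpin1, a coactivator and phosphatidate phosphatase, had -2.33 with an adjusted p of 0.0676 (edgeR). Its livers did not overlap, at 715.5, 223 and 479.7 CPM under the scrambled hairpin against 75.9, 155 and 51.0 CPM.

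Of 34 other PPARalpha target genes, 1 rose and 2 fell, beside 3.02% and 4.64% of all genes. In this list 23 were below 0, and the median was -0.10 beside 0.01 for all genes. Without scramble liver 1 the median was 0.002, with 3 higher and 2 lower calls, and it was -0.20 without scramble liver 2. DESeq2's Wald test called 4 higher and 7 lower, and limma-voom 1 higher and 2 lower. Acot1, a cytosolic acyl-CoA thioesterase, rose (1.15, SE 0.15, adjusted p = 0.00633, edgeR), where Cyp4a10 and Cyp4a14 had lower values. Its CPM was 23.1, 18.2 and 18.4 under the scrambled hairpin and 46.8, 48.9 and 37.3 in the knockdown livers. Acot1 carried fractional counts in all 6 libraries, and the part of read division in its rise was not tested. Txnip, a thioredoxin inhibitor, fell (-1.23, SE 0.19, adjusted p = 0.0113, edgeR), and so did the fatty acid translocase Cd36 (-2.18, SE 0.43, adjusted p = 0.0351, edgeR). Acot1 and Txnip were called with any 1 liver left out, whereas Cd36 was called only without scramble liver 1 or without scramble liver 2. Pdk4, a kinase that restrains pyruvate oxidation, had a log2 fold change of 0.27 and did not pass. On log2(FPKM + 0.1), where the median of all genes was 0.16, the medians of the target list and of the receptor and its partners turned to 0.05 and 0.03.

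Of 22 genes that carry omega-hydroxy acids onward, 2 rose and 1 fell, beside 3.02% and 4.64% of all genes. Their median of -0.05 turned to 0.09 on log2(FPKM + 0.1), 0.01 without scramble liver 1 and 0.05 without shRNA-S1PR2 liver 1. DESeq2's Wald test called 2 higher and 3 lower. Adh4, an alcohol dehydrogenase that oxidises omega-hydroxy fatty acids, rose from 50.7 ± 8.01 to 140.1 ± 20.0 CPM (SD, n = 3; log2 fold change 1.47, SE 0.16, adjusted p = 0.00524, edgeR). The peroxisomal carnitine octanoyltransferase Crot rose from 109 ± 8.40 to 220.3 ± 14.1 CPM (1.02, SE 0.12, adjusted p = 0.00531, edgeR). Both were called with any 1 liver left out. Acsl5, an acyl-CoA synthetase, fell (-0.68, SE 0.14, adjusted p = 0.0293, edgeR), a call that held only when scramble liver 2 was the liver left out. The fatty aldehyde dehydrogenase Aldh3a2 had a log2 fold change of -0.31 (SE 0.51, adjusted p = 0.770, edgeR), with scramble liver 1 at 354 CPM above the other livers.

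Of 7 genes for microsomal electron supply and haem, 1 rose and 0 fell, beside 3.02% and 4.64% of all genes. Cyb5a, cytochrome b5, went from 657.5 ± 46.1 to 1046 ± 73.9 CPM (SD, n = 3; log2 fold change 0.67, SE 0.15, adjusted p = 0.0323, edgeR), a call that held only when shRNA-S1PR2 liver 1 was the liver left out. Por, the reductase that all Cyp4 enzymes need, was measured at 666, 228 and 346 CPM under the scrambled hairpin and at 339, 252 and 173 CPM in the knockdown livers. Its highest value was in scramble liver 1, where Cyp4a10 and Cyp4a14 were also highest, and its log2 fold change of -0.70 did not pass (SE 0.44, adjusted p = 0.385, edgeR).

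Of 12 leukotriene and HETE pathway genes, 5 were tested, and 1 rose and 1 fell, beside 3.02% and 4.64% of all genes. Neither gene was called by limma-voom, without robust dispersion or on either FPKM scale. Pla2g6, a phospholipase that frees arachidonic acid, rose (0.59, adjusted p = 0.0474, edgeR), and Lta4h, which makes leukotriene B4, fell (-0.49, adjusted p = 0.0477, edgeR). Lta4h lost its call with any 1 liver left out, and Pla2g6 kept it only without shRNA-S1PR2 liver 3. The substrate-making lipoxygenase Alox5 was below the filter, at 1 to 7 expected counts a library.

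Because Cyp4a12a is male-predominant, sex-biased liver genes were counted as well. Of 17 male-biased genes, 16 were tested, 1 rose and 0 fell, with 13 above 0 and a median of 0.77. That median was 0.50 without scramble liver 1 and 1.33 without scramble liver 2. DESeq2's Wald test called 3 higher and 1 lower, and 2 with lower values had an unadjusted p under 0.05. Susd4 was the one that rose (1.58, adjusted p = 0.00884, edgeR). Cyp2d9, another male-biased P450, had -0.65 with an adjusted p of 0.0680 (edgeR), opposite to Cyp4a12b. Of 17 female-biased genes, 9 were tested, 0 rose and 4 fell, with a median of -2.42. No gene of this list rose by DESeq2's Wald test or limma-voom or had an unadjusted p under 0.05 with a higher value, and DESeq2's Wald test called 6 lower. Those that fell by edgeR were the glutathione transferase Gstt3 (-2.14), the estrogen sulfotransferase Sult1e1 (-1.84) and the P450s Cyp2b13 (-2.43) and Cyp2b9 (-2.42). With 1 liver left out, Gstt3 was called each time, Sult1e1 and Cyp2b13 each time except without shRNA-S1PR2 liver 2, and Cyp2b9 only without scramble liver 3. Cyp2b9, whose value is the list's median, averaged only 2.82 CPM in scramble and 0.516 CPM in shRNA-S1PR2 livers. It was also not called by limma-voom. Cyp2b9 and Cyp2b13 carried fractional counts in all 6 libraries. The list's median was -1.88 over 16 genes without the low-count filter, and -1.30 over 12 genes on log2(FPKM + 1). Over all genes tested the median was 0.01, with 3.02% called higher and 4.64% lower.

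Of 12 genes from growth hormone to STAT5, which set sex-biased expression in liver, 0 passed edgeR's test, 3 had an unadjusted p under 0.05, 1 was called by DESeq2's Wald test and 0 by limma-voom. The median was -0.02 and became 0.13 on log2(FPKM + 0.1), 0.24 without scramble liver 2 and 0.17 without shRNA-S1PR2 liver 1. Socs2, a growth hormone target and inhibitor, was measured at 1.53, 1.74 and 2.60 CPM under the scrambled hairpin and at 14.2, 10.8 and 3.04 CPM in the knockdown livers. Its groups did not overlap, the log2 fold change was 2.26 and the adjusted p was 0.0728 (edgeR). It was the gene that DESeq2's Wald test called, and edgeR called it without robust dispersion or without shRNA-S1PR2 liver 3. Stat5a (0.35) and Stat5b (-0.32) did not pass.

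**Figure D5:**
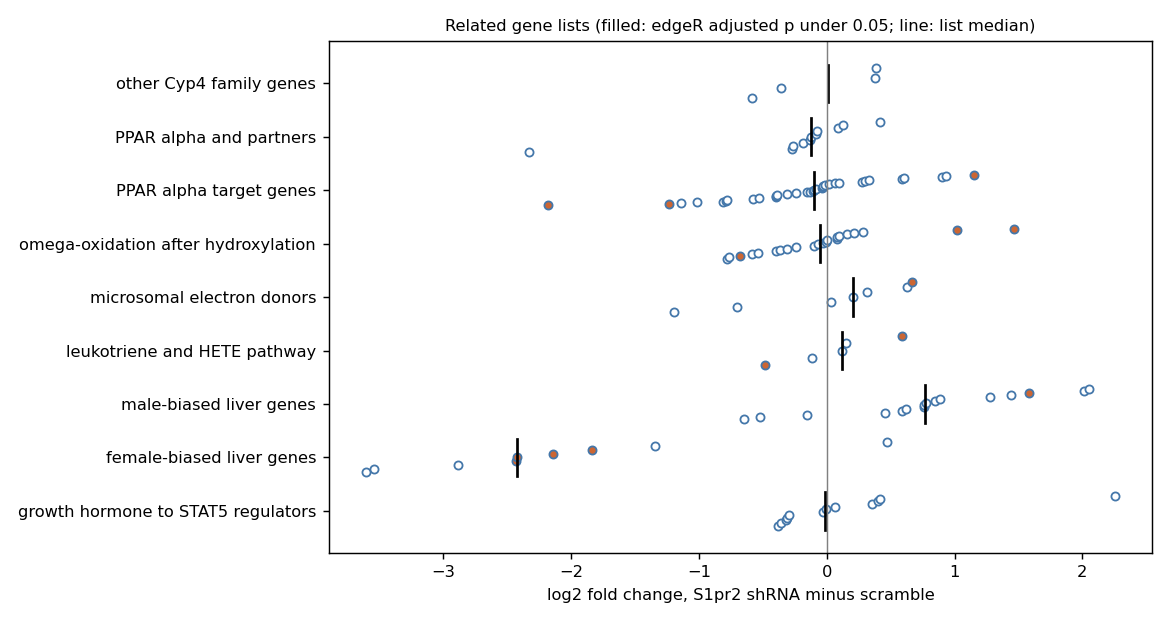
Log2 fold change (shRNA-S1PR2 minus scramble, edgeR) of every tested gene in the 9 lists around the omega-hydroxylases, 1 row a list; filled points passed an adjusted p of 0.05 and the vertical line is the list median. The male-biased list has its median at 0.77 and the female-biased list at -2.42, and the other 7 medians lie between -0.13 and 0.21.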

How the data were processed

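Liver RNA from 3 shRNA-Scramble and 3 shRNA-S1PR2 samples was sequenced on a DNB platform, per the labels' protocols. HISAT2, Bowtie2, RSEM 1.2.12 and DESeq2 with build mm9 were used by the authors, per the submitters' processing notes. Strand handling was not given in the sources used here. Deposited by the authors were RSEM expected counts, FPKM, a transcript length and the transcript IDs for each gene. The number of transcripts of a gene was counted from these IDs. Libraries held 16558775 to 17410160 expected counts, of which 0.204% to 0.255% had no gene symbol.

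Expected counts were rounded and tested with edgeR 4.0.16 (R 4.3.3; filterByExpr with a minimum count of 10, TMM, robust quasi-likelihood F-test, Benjamini-Hochberg over 12230 genes, threshold 0.05). The contrast was shRNA-S1PR2 minus scramble, with no covariate. The script was tested on simulated counts. DESeq2 1.42.0, limma 3.58.1 (voom, and log2(FPKM + 0.1) and log2(FPKM + 1) at a mean FPKM of at least 0.1, on which fold changes of low genes are understated), other size factors and filters, a replicate block and leaving out each liver were the alternatives. The members and the gene lists were chosen with earlier results of these data known. The text names all 10 members, S1pr2, Ppara, Pdk4, Aldh3a2, Por and Cyp4f18, up to 4 tested genes with the smallest p in each list, and the 5 genes nearest each of 3 patterns by correlation, except for items that are not reported here. Alox5 was named after its values were seen. Levels between genes were compared in FPKM only.

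Coding identity and shared windows came from GENCODE M21 (GRCm38), with the GENCODE transcripts matched to each symbol, and promoters from the RefSeq table (GRCm38.p6). Neither build is that of the counts, and no position was carried over from mm9. Windows of 100 and 50 bases were compared with all other genes' transcripts. A count was taken as fractional when it was more than 0.001 from a whole number.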

Additional observations from a re-analysis of the deposited data

How the results depend on the processing

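Over 17 alternatives, 162 of 170 member values kept their direction and their side of the threshold. With related members summed, Cyp4a12a, Cyp4a12b, Cyp4a10, Cyp4a31 and Cyp4a32 each carried the value of their sum. Those entries, though counted here, do not test the single gene. The 3 values that turned were Cyp4a12a at -0.079 and Cyp4a31 at 0.30 without scramble replicate 1, and Cyp4v3 at -0.041 without shRNA-S1PR2 replicate 2. With 1 liver left out these genes ran from -0.079 to 0.47, from -0.96 to 0.30 and from -0.041 to 0.31. Cyp4a12b was called in 16 of the 17, the exception being the sum with Cyp4a12a, which merges the pair into 1 feature (0.64, adjusted p = 0.194, edgeR). The count of called members, 1 by edgeR, was 3 with DESeq2's Wald test, 2 with log2(FPKM + 0.1), 2 with log2(FPKM + 1) and 0 with related members summed. Over all genes the 937 calls became 1466 with DESeq2's Wald test, and 231 to 643 with 1 liver left out, where fewer samples were fitted. Deviations of same-numbered livers correlated at -0.062, 0.222 and -0.116, and those of differently numbered livers at -0.301 to 0.301. Whether the replicate numbers pair the livers cannot be told from these values. With the numbers as a replicate block, 808 genes and 1 member were called, and S1pr2 had an adjusted p of 0.0684 (edgeR). S1pr2 also missed the threshold with log2(FPKM + 0.1) (0.0661, limma). The Cyp4a12b share differed by 21.8 to 24.4 percentage points and the Cyp4f14 length by -37.3 to -27.3 bases with 1 liver left out, both tried after seeing the data. Groups of 3 livers were not tested for outliers. Among the members, Cyp4a31 and Cyp4a32 had the fewest counts.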
